A study of Mus musculus with 3 samples.

Results

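Mir10a and Mir10b are paralogous mouse miRNA genes, and their 5′-ends were described in small RNA-seq libraries from MIN6 cells, a line derived from a mouse insulinoma and used as a model of the insulin-secreting beta cell. The 2 hairpins were chosen because both carry a miRNA that begins at 2 neighbouring 5′-starts, the 5′-reference start and the start 1 base downstream (+1). The starts of miR-10a-5p, miR-10b-5p and their +1 forms were located on chromosomes 11 and 2 by matching the expression that the study lists for them within 0.2%, and each of the 4 names matched exactly 1 start on the + strand. Together the 5p arms held 2986, 3249 and 2906 reads in replicates 1, 2 and 3, of 9269795, 10816006 and 10218743 mapped reads. Those libraries are 3 biological replicates of 1 condition, MIN6 cells grown at 25 mM glucose, so no comparison between conditions could be made. MIN6 is a tumor line, and no primary beta cells or islets were analysed here. The beta cell miRNA miR-375 was present at 334275, 357402 and 371065 RPM (reads per 1000000 mapped reads) in the 3 libraries, so this marker was abundant in each. Over the placed miRNA arms the libraries differed by more than sampling noise in every pair, and they were counted as 3 samples.

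A miRNA hairpin is cut by Drosha in the nucleus and by Dicer in the cytoplasm, which leaves a short duplex with a 5p and a 3p strand, and usually one strand is retained in the RNA-induced silencing complex. Drosha sets the 5′-end of a 5p strand. The bases from position 2 to 8, the seed, pair with target mRNAs, so a 5′-shifted isomiR carries another seed than its 5′-reference miRNA. The miR-10 family is an old family of animal miRNAs, and the genes of miR-10a and miR-10b lie in the Hox clusters, which hold the transcription factors that pattern the body axis. In the RefSeq gene table (GRCm38.p6) Mir10a was next to Hoxb4 and Mir10b next to Hoxd4.

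The mature sequences below are from RefSeq (GRCm38.p6), written 5′ to 3′ with the seed in capitals. They are shown because the shift by 1 base exchanges the seed, while the paralogs share the seed at either start.
miR-10a-5p: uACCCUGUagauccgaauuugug
miR-10a-5p+1: aCCCUGUAgauccgaauuugug
miR-10b-5p: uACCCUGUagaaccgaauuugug
miR-10b-5p+1: aCCCUGUAgaaccgaauuugug
The seed of the reference forms, ACCCUGU, belonged to miR-10a-5p and miR-10b-5p and to no other of the 1738 mature sequences in the table. The seed of the +1 forms, CCCUGUA, belonged to 0 of the 1738 at their reference starts. A shift by 1 base also replaced the 5′-terminal U with A in both miRNAs.

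Over their 23 bases the mature 5p arms differed at 1 position, U12A, where the base of miR-10a-5p is given first and positions are counted from 1 at the reference 5′-end. That base is in capitals here, because it is all that assigns a 5p read to one gene or the other.
miR-10a-5p: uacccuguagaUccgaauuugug
miR-10b-5p: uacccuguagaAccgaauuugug
The 4 hairpin bases before the reference start, the 11 bases from it and the 12 bases from position 13 to position 24 were identical in the RefSeq hairpins. Position 24, directly after the mature sequence, was U in both. Hence the bases at both 5′-cut sites, and at the 3′-ends described below, did not differ between the paralogs within these windows.

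On the mm9 build, which the submitters' processing notes name, the miR-10a-5p reference start was at base 96178500 of chromosome 11 and the +1 start at base 96178501. For miR-10b-5p the reference start was at base 74564131 of chromosome 2 and the +1 start at 74564132. With the RefSeq hairpins laid on these starts without gaps, the hairpin of miR-10a (110 nt) covered chr11:96178479-96178588 and that of miR-10b (68 nt) covered chr2:74564127-74564194, both on the + strand. The sequence at each start was checked against the bases excluded by mismatches in its reads, scored in bits of information. The mature miR-10a-5p sequence scored 25.7 bits at its start, above the threshold of 20 bits, and 29.5 bits with the hairpin bases on either side, as used to place all arms. The mature miR-10b-5p sequence scored 7.98 bits, the best of the starts on its strand but under that threshold, so miR-10b was placed mainly by its listed expression.

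miR-10a-5p was the more abundant paralog at every start. Its reference form was expressed at 188, 182 and 165 RPM in replicates 1, 2 and 3, or 178 ± 11.8 RPM (SD, n = 3). The +1 form of miR-10a was expressed at 77.8, 66.8 and 69.7 RPM, or 71.4 ± 5.69 RPM (SD, n = 3). The lowest library of the reference form lay above the highest of the +1 form. A start 1 base upstream (−1) held 38, 31 and 24 reads, which is 3.10 ± 0.899 RPM (SD, n = 3). The miR-10a-5p-1 isomiR has the seed UACCCUG, which none of the reference mature sequences in the table share.

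Expression of miR-10b-5p was lower, at 41.8, 38.7 and 37.1 RPM for the reference form, or 39.2 ± 2.38 RPM (SD, n = 3). Its +1 form was expressed at 10.1, 9.94 and 9.49 RPM, or 9.86 ± 0.332 RPM (SD, n = 3). No read of miR-10b-5p began at −1 or +2. With 481.5, 526 and 476.5 reads in the arm, such starts with 0 reads could still have taken up to 0.623%, 0.570% and 0.630% of it (3 reads of the arm). The share at −1 of miR-10a-5p was 1.52%, 1.14% and 0.988%, above these limits in each library. Reads at +2 of miR-10a-5p numbered 5, 0 and 7, and 1 further read each began at +4 and +5.

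**Figure D1:**
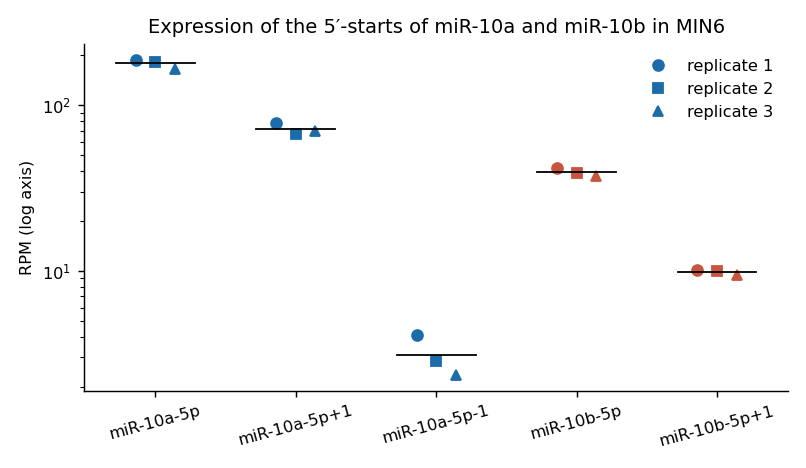
Expression in RPM (log axis) of each named 5′-start of miR-10a-5p and miR-10b-5p, with 1 marker per replicate and a line at the mean of the 3 libraries. miR-10a-5p lies at 165 to 188 RPM, its +1 form at 66.8 to 77.8 RPM, miR-10b-5p at 37.1 to 41.8 RPM and its +1 form at 9.49 to 10.1 RPM.

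The ratio of the paralogs was steady across libraries for the whole arm and differed by start. miR-10a-5p had 5.20, 5.18 and 5.10 times the reads of miR-10b-5p in replicates 1, 2 and 3 (5.16 ± 0.0537, SD, n = 3). At the reference start the ratio was 4.49, 4.71 and 4.44, and at the +1 start it was 7.67, 6.72 and 7.34. In every library the ratio at +1 exceeded the ratio at the reference start. These levels are descriptive, since the starts were found by their expression.

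The 5′-heterogeneity of miR-10a-5p was larger than that of miR-10b-5p in all 3 libraries. Of the miR-10a-5p reads, 28.8%, 26.5% and 29.3% began at +1 in replicates 1, 2 and 3, with 95% Wilson intervals of 27.1–30.6%, 24.9–28.2% and 27.5–31.1%. The mean was 28.2% ± 1.47 (SD, n = 3). Of the miR-10b-5p reads, 19.5%, 20.4% and 20.4% began at +1, with intervals of 16.2–23.3%, 17.3–24.2% and 17.0–24.2%, and the mean was 20.1% ± 0.507 (SD, n = 3). The groups did not overlap, nor did any interval of one paralog reach one of the other. Because the starts were found by the listed expression of these same forms, the shares are descriptive, as the levels are. Their comparison restates the listed values and gives no independent support. Within libraries the difference was 8.10 ± 1.75 percentage points (SD, n = 3), larger than the spread between replicates. An exact two-sided permutation test that flips the sign of the 3 within-library differences gave p = 0.25, the smallest value that 3 libraries allow, so this design cannot reach 0.05. Every test below is of this kind and has the same limit, and over the 9 differences tested the permutation p adjusted by Benjamini-Hochberg is also 0.25. Intervals cover counting error only. They may be too narrow even for that, because the reads carry no molecular identifiers and copies of 1 molecule were counted as separate reads.

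Reads at +1 numbered 0.414, 0.367 and 0.422 for each reference read of miR-10a-5p, and 0.243, 0.257 and 0.256 for each of miR-10b-5p. The effective number of starts, the inverse of the summed squared shares of the starts, would be 1 if every read began at the same base. It was 1.77, 1.68 and 1.76 for miR-10a-5p (1.74 ± 0.0469, SD, n = 3) and 1.46, 1.48 and 1.48 for miR-10b-5p (1.47 ± 0.0131, SD, n = 3). The paralogs differed by 0.27 ± 0.056 starts within libraries (SD, n = 3, exact permutation p = 0.25), and miR-10a-5p was higher in 3 of 3. This index is built from the same shares and is likewise descriptive.

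**Figure D2:**
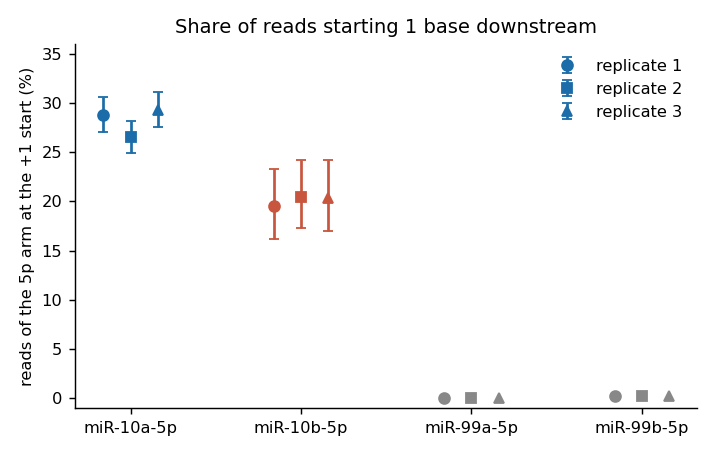
Share of the reads of each 5p arm that begin at the +1 start, in percent, with 1 marker per replicate, and 95% Wilson intervals for the miR-10 arms. miR-10a-5p lies at 26.5 to 29.3% and miR-10b-5p at 19.5 to 20.4%, while miR-99a-5p has 0 reads there and miR-99b-5p lies near 0.187%.

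At the starts taken for the miR-99 members of the family, the share of reads at +1 was small or 0. The miR-99 sequences are close to miR-10 but have the seed ACCCGUA, in capitals here.
miR-99a-5p: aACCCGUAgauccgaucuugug
miR-99b-5p: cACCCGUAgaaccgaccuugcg
miR-99a-5p was expressed at 53.1 ± 5.78 RPM (SD, n = 3) at its reference start, a level beside that of miR-10b-5p. It had 0 reads at +1 in each library, which allows a share of up to 0.556%, 0.471% and 0.608% (3 reads of the arm). miR-99b-5p was expressed at 31246 ± 4580 RPM and had 0.187% ± 0.00566 of its reads at +1 (SD, n = 3). The mature miR-99a-5p sequence scored 15.1 bits, under the threshold of 20 bits, and that of miR-99b-5p 44.0 bits. The start taken for miR-99a-5p was the best on its strand, and the next scored 6.245 bits. Its placement, and with it the 0 reads at +1, is therefore less certain than that of miR-99b-5p. miR-100-5p, a further member of the family, and the other miRNAs of the Hox clusters, miR-196a, miR-196b and miR-615, could not be located, with best scores of 2.42 to 10.2 bits, and no level is given for them.

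Among all arms whose RefSeq sequence could be placed, a large +1 share was uncommon. Over 153 arms, with arms placed on the same reads counted once, the median share at +1 was 0.178% and the upper quartile 1.26%. A share of at least 10% was found in 15 arms, or 9.80%, a count that holds miR-10a-5p but not miR-10b-5p, which was not placed by sequence. Both paralogs exceeded 10%, but they were chosen for having a listed +1 form, so nothing is read from this. miR-10a-5p was ninth in this order, directly after miR-30a-3p (32.9%) and before miR-183-5p (27.9%), from which it differed by less than its own SD. miR-10b-5p would have followed miR-192-5p (20.5%), again within 1 SD. miR-125b-5p, with 36.9% at +1, stood above miR-10a-5p, whereas miR-125a-5p had 0.273%. Of the arms at or above 10%, 9 were among 77 3p arms and 6 among 74 5p arms. The median effective number of starts over these arms was 1.03.

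**Figure D3:**
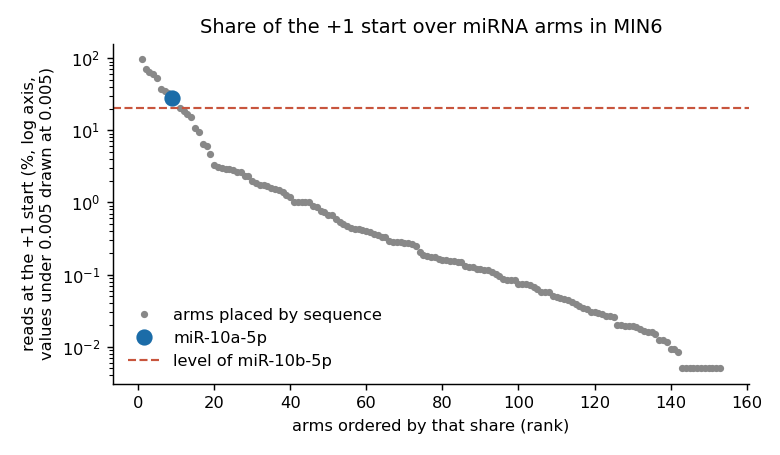
Share of reads at the +1 start (percent, log axis, values under 0.005 drawn at 0.005) of 153 miRNA arms in MIN6, ordered by that share, as means of 3 libraries. miR-10a-5p (large point, 28.2%) and the level of miR-10b-5p (dashed line, 20.1%) lie above the median of 0.178%. Both were chosen for having a listed +1 form, so nothing is read from their height.

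The 3p strands were almost absent. Their RefSeq sequences are given with seeds in capitals, because the 3p arms of the paralogs differ more than the 5p arms, by A3G, U9A and A10U over 22 bases (the base of miR-10a-3p first, counted from the 5′-end of the 3p arm).
miR-10a-3p: cAAAUUCGuaucuaggggaaua
miR-10b-3p: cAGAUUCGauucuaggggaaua
miR-10a-3p had 0, 5 and 0 reads in replicates 1, 2 and 3. All 5 reads of replicate 2 were 21 nt long and began at base 96178541 of chromosome 11, the RefSeq start of the arm, which makes 0.462 RPM in that library. miR-10b-3p had 0 reads in all libraries. At this depth 0 reads allow up to 0.324, 0.277 and 0.294 RPM in replicates 1, 2 and 3. In replicate 2 the 5p arm of miR-10a had 2723 reads against the 5 of its 3p arm. The 5′-heterogeneity of the 3p arms could therefore not be compared with that of the 5p arms. Antisense reads were 0 at both hairpins. In replicates 2 and 3, 1 read of 20 nt ended directly before the miR-10a-5p reference start.

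The 3′-ends moved with the 5′-start in both miRNAs. Reads aligned without a mismatch were used, and ends are counted on the reference miRNA, so that the same number stands for the same base whatever the 5′-start. The most abundant sequences of each form are shown with their seeds in capitals.
miR-10a-5p, 22 nt: uACCCUGUagauccgaauuugu
miR-10a-5p+1, 22 nt: aCCCUGUAgauccgaauuugug
miR-10b-5p, 22 nt: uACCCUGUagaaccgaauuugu
miR-10b-5p+1, 23 nt: aCCCUGUAgaaccgaauuugugu
The 22-nt reference sequence of miR-10a-5p had 1008, 1143 and 943 reads, or 40.3% ± 1.58 of the whole arm (SD, n = 3), and that of miR-10b-5p had 220, 254 and 224 reads, or 47.0% ± 1.30 (SD, n = 3). The +1 sequence of miR-10a-5p had 300, 312 and 312 reads and ended 1 base later. That of miR-10b-5p had 42, 38 and 33 reads and ended 2 bases later, at position 24.

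From the reference start, 69.0% ± 1.35 of the miR-10a-5p reads and 73.8% ± 2.56 of the miR-10b-5p reads ended at position 22 (SD, n = 3). From the +1 start, position 22 took 27.0% ± 0.547 and 19.9% ± 6.22. The +1 reads of miR-10a-5p ended most often at position 23, with 55.3% ± 0.838, and 15.5% ± 1.54 ended at position 24. The +1 reads of miR-10b-5p ended at position 23 in 29.7% ± 3.56 and at position 24 in 48.3% ± 10.3. Thus the prevailing end of the +1 form was not the same in the paralogs, although their sequences from position 13 to position 24 are.

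The mean 3′-end of miR-10a-5p reads was 22.30 from the reference start and 22.85 from the +1 start, a difference of 0.55 ± 0.048 bases within libraries (SD, n = 3, exact permutation p = 0.25). For miR-10b-5p the mean 3′-end was 22.26 and 23.26, a difference of 1.00 ± 0.12 bases (SD, n = 3, exact permutation p = 0.25). Both were positive in 3 of 3 libraries. The mean length of the miR-10b reads was therefore 22.26 nt at both starts, and that of the miR-10a reads was 22.30 nt at the reference start and 21.85 nt at +1.

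At the +1 start, the share of reads ending at position 24 was 16.9%, 13.9% and 15.8% for miR-10a-5p, based on 551, 563 and 556 reads. It was 60.0%, 44.2% and 40.7% for miR-10b-5p, based on 70, 86 and 81 reads, with 95% Wilson intervals of 48.3–70.7%, 34.2–54.7% and 30.7–51.6%. The libraries of the paralogs did not overlap, and the difference was 32.8 ± 9.35 percentage points (SD, n = 3, exact permutation p = 0.25). Replicate 1 stood highest for miR-10b-5p+1, and with 70 reads its interval still overlapped those of the other libraries. At the reference start the same end took 7.68%, 6.40% and 5.60% for miR-10a-5p and 8.52%, 5.74% and 6.15% for miR-10b-5p, and there the libraries overlapped. The comparisons of 3′-ends were chosen after the data had been seen.

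**Figure D4:**
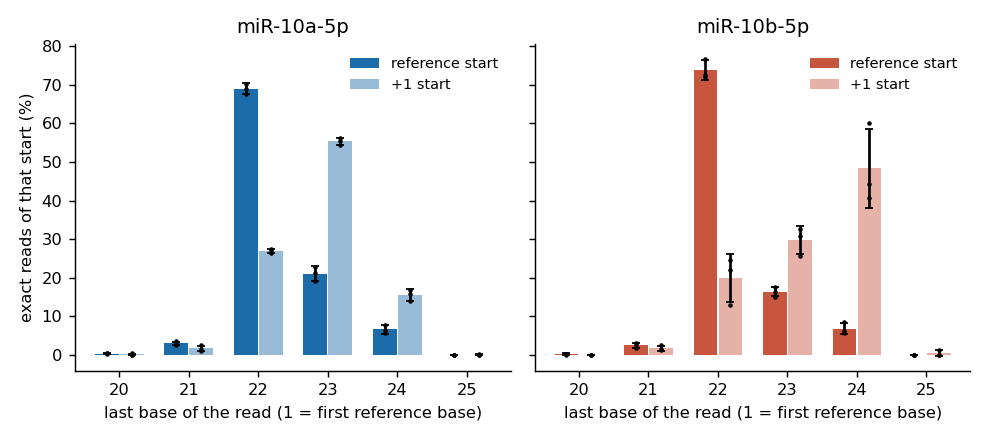
Share of exact reads (percent) by the position of their last base, counted from the first reference base, for the reference start (dark bars) and the +1 start (pale bars) of miR-10a-5p and miR-10b-5p; bars are means, points are the 3 libraries and error bars the SD. Position 22 prevails at both reference starts, position 23 at the +1 start of miR-10a-5p and position 24 at that of miR-10b-5p.

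Reads whose last base does not match the genome carry a candidate 3′-non-templated addition. They were more frequent at the +1 start than at the reference start of miR-10a-5p. Such reads made up 3.25%, 2.74% and 2.91% of the reference form and 8.25%, 7.47% and 6.39% of the +1 form in replicates 1, 2 and 3. The forms did not overlap, and the difference was 4.41 ± 0.811 percentage points (SD, n = 3, exact permutation p = 0.25). For miR-10b-5p they made up 2.19%, 2.87% and 2.11% of the reference form and 3.72%, 3.72% and 4.64% of the +1 form. Although this difference of 1.64 ± 0.844 percentage points was positive in 3 of 3 libraries (SD, n = 3, exact permutation p = 0.25), it rested on 3.5 to 4.5 reads per library at +1, and the counting intervals of the forms overlapped.

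The mismatching base was examined at position 24, where both hairpins hold U. With mismatched reads included, 24 was the last position of 8.46% ± 0.985 of the miR-10a-5p reference reads and 21.4% ± 2.07 of its +1 reads (SD, n = 3). For miR-10b-5p these shares were 8.16% ± 1.03 and 48.0% ± 9.64 (SD, n = 3). The part of this shift of 3′-ends in the shares of mismatching ends was not tested. Of all reads with 24 as the last position, A took the place of U in 17.4% ± 1.12 of the miR-10a-5p reference reads and 24.5% ± 1.86 of its +1 reads (SD, n = 3), from 457.5 and 460.5 reads over the libraries. For miR-10b-5p it did so in 16.2% ± 4.45 of 96.5 reference reads and 4.59% ± 0.379 of 142.5 +1 reads. In the +1 form of miR-10b this amounted to 2.5, 2 and 2 reads. U, the base of the hairpins, was present in 67.7% ± 4.52 of the miR-10a-5p+1 reads and 91.7% ± 1.86 of the miR-10b-5p+1 reads that ended there (SD, n = 3). Whether that U was templated or added could not be told from the reads.

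A small set of reads could not be assigned to either gene. A read with C at position 12 has 1 mismatch to both paralogs, and the authors' division placed 49.5, 44 and 41.5 of them at each gene in replicates 1, 2 and 3. They were 1.77% ± 0.187 of the miR-10a-5p reads but 9.12% ± 1.02 of the miR-10b-5p reads (SD, n = 3). Every shared read had its mismatch at position 12, and it was C in all but 1 read of replicate 3. Counted wholly at miR-10b-5p, they would have made A12C 18.8% ± 1.56 of its reference reads (SD, n = 3). Counted wholly at miR-10a-5p, they would have made U12C 4.47% ± 0.457 of its reference reads (SD, n = 3). In other placed arms, C in place of A at base 12 of the read had a median of 18.6% (7.28% to 32.6%, 36 arms), and C in place of U there had a median of 0.0170% (at most 0.0494%, 40 arms). The value for miR-10b-5p thus lay within the range of other arms and the value for miR-10a-5p above it. With all shared reads counted at miR-10b-5p, the +1 share was 28.6% for miR-10a-5p and 19.1% for miR-10b-5p, and with all counted at miR-10a-5p it was 27.9% and 21.3%.

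C in place of A was also frequent at position 11, and its share followed the 5′-start. A11C was found in 6.57% ± 0.143 of the miR-10a-5p reference reads and 12.4% ± 1.19 of the +1 reads (SD, n = 3). In single libraries it was 6.73%, 6.45% and 6.53% at the reference start and 11.7%, 11.8% and 13.8% at +1. For miR-10b-5p it was found in 4.62% ± 0.585 and 10.7% ± 2.12 (SD, n = 3). The +1 form was higher by 5.83 ± 1.24 percentage points for miR-10a-5p and by 6.06 ± 1.53 for miR-10b-5p, in 3 of 3 libraries each (SD, n = 3, exact permutation p = 0.25 for either). These comparisons of A11C were chosen after the data had been seen.

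The same base is read 11 from the reference start and read 10 from the +1 start. In other arms at their reference starts, C in place of A had a median of 12.8% at base 10 of the read (5.13% to 16.3%, 34 arms) and of 7.85% at base 11 (3.54% to 10.9%, 26 arms). Both forms of both miR-10 miRNAs lay within the range for their base of the read. miR-99a-5p and miR-99b-5p, whose reference starts put an A at base 10 of the read, had 14.8% ± 0.538 and 11.9% ± 0.709 there (SD, n = 3). Hence the A11C shares of the reference and +1 forms differed as the shares of other arms at bases 11 and 10 did, and the part of the read position in them was not tested. Reads without any mismatch were 83.1% ± 0.904 of the miR-10a-5p reference form and 77.5% ± 0.919 of its +1 form (SD, n = 3). For miR-10b-5p they were 79.7% ± 1.47 and 79.3% ± 4.56 (SD, n = 3), and there the +1 form was lower in replicate 1 and higher in replicates 2 and 3.

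**Figure D5:**
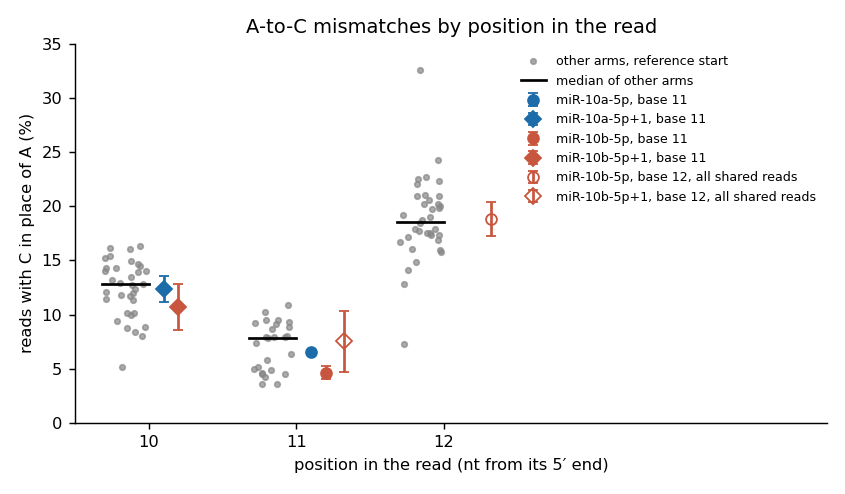
Share of reads (percent) with C in place of A at bases 10, 11 and 12 of the read for other placed arms (grey points, median as a line) and for miR-10a-5p and miR-10b-5p, whose bases are named from the reference start and drawn at their place in the read (mean and SD of 3 libraries; open symbols count all reads shared by the paralogs at miR-10b-5p). The miR-10 values lie within the range of the other arms at each base of the read.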

How the data were processed

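Total RNA of MIN6 cells was sequenced with the Illumina TruSeq small RNA kit. Per the labels and the study's methods, the authors trimmed adaptors with cutadapt, mapped reads of 14 to 41 nt exactly with Bowtie to mm9, and aligned the remainder to the mapped windows with mismatches. Each deposited value is an expected count of reads per alignment, with reads of several equally good loci divided among them. They are not normalized and replicates were not pooled. Mismatched reads were thus only sought near exact ones.

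Exact alignments ended 1 base early, and this was corrected. Reads were summed per 5′-start in pandas 2.3.3 and numpy 2.4.6 (Python 3.11.15), tested in scipy 1.17.1 and plotted in matplotlib 3.10.9. An arm comprised starts within 5 bases of the reference start. RPM refers to all mapped reads of a library. Sequences were RefSeq's (GRCm38.p6), and no coordinates were converted. Of 1738 mature sequences, 181 were placed by the bases that mismatches excluded, at starts with at least 15 reads and 20 bits, against 1 reversed sequence, and arms within 5 bases of each other were counted as 1. The scripts were tested on simulated data.

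Shares have 95% Wilson intervals (fractional reads rounded), and within-library differences an exact two-sided permutation test. A count of 0 allows up to 3 reads, 0.277 to 0.324 RPM. Named are all starts with at least 10 reads in a library, the miR-99 and miR-100 members of the miR-10 family and the miRNAs of the Hox clusters. Members and lists were chosen with earlier results of these data known. Alternatives used single-locus, exact or 18 to 25 nt reads, other measures, other divisions of shared reads, and 2 of the 3 libraries. The comparisons of 3p with 5p arms could not be made.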

Additional observations from a re-analysis of the deposited data

How the results depend on the processing

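The 9 differences between paralogs or starts kept their direction in 23 of 23 alternatives that used other reads, measures or divisions. These are not independent checks, and several could hardly turn a direction. The other measures of heterogeneity re-express the same shares of starts. Reads of 18 to 25 nt were nearly all reads, with 178.16 RPM against 178.23 for the miR-10a-5p reference form. Leaving out a replicate could not turn a direction, since each difference had the same sign in all 3 libraries. Because p could not fall below 0.25 with 3 libraries, or 0.5 with 2, no alternative could cross a threshold, and this says nothing about significance. The difference in +1 share between the paralogs was 6.61 to 9.42 percentage points over the divisions of shared reads, and 6.88 with exact reads. Leaving out each replicate in turn gave 7.52 to 9.11 percentage points for that share, 0.24 to 0.30 for the effective number of starts, and 27.6 to 36.7 for +1 reads ending at position 24. The levels in RPM moved by less than 1 SD in 20 of 28 alternatives and by more in 8, namely with RPM computed from exact reads alone (all 4 forms) and with the shared reads left out or counted at miR-10b (both miR-10b forms). The reference form of miR-10b was then 35.1 or 43.3 RPM. The alternatives on shared reads, 3′-ends and A11C were chosen after seeing the data. The comparisons of the 3p with the 5p arms, and their alternatives, were not run for lack of 3p reads. No paired analysis was possible between groups of samples because there is 1 condition, while the tests within libraries are paired by construction. Depth limits the 3p arms (0 to 5 reads per library), the −1 start of miR-10a-5p (24 to 38) and miR-10b-5p+1 (94 to 107.5).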
